A study of Homo sapiens with 8 samples.

Results

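The genes that copy the genome and supply its building blocks were followed through 8 RNA-seq libraries from ABC1 and HCC4006, which are human lung adenocarcinoma cell lines. The list held 48 genes, chosen by name for their step in DNA replication or deoxynucleotide supply. The choice was made with earlier results of these data known. The shares of members set beside those of all genes are therefore descriptions and no test of the list. Of the 48 genes, 47 were matched to 1 identifier each among the 57815 gene identifiers of the series. *UHRF1*, which guides the copying of DNA methylation, was the member without a match, and no value is given for it. The study classes both lines as NRF2-normal, so that all 4 groups share what it calls an intact KEAP1-NRF2 system, the cell's sensor of electrophiles. The groups were ABC1 with vehicle, ABC1 with DEM, HCC4006 with vehicle and HCC4006 with DEM, with 2 libraries each, which the study's methods call biological duplicates. DEM is diethyl maleate, an electrophile that depletes glutathione, given at 100 µM, and RNA was taken after 16 h. The vehicle was dimethyl sulfoxide (DMSO). The question put to the data was how far the messages of each replication step moved with DEM in each line.

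Replication begins in G1, when the origin recognition complex, CDC6 and CDT1 load the ring-shaped MCM2-7 helicase onto origins. At the start of S phase, CDC45 and the GINS complex join the ring to make the active helicase, and MCM10 helps it to fire. Primase and polymerase alpha lay down primers, RFC loads the sliding clamp PCNA, polymerases delta and epsilon extend, RPA covers single strands, and FEN1 and LIG1 seal the lagging strand. Ribonucleotide reductase and thymidylate synthase make the deoxynucleotides that the polymerases use. Many of these genes are transcribed in late G1 and S phase under E2F factors, and they are therefore low in cells that rest or arrest before S phase.

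E2F factors bind short GC-rich letters close to the start sites of their target genes. Stretches of 9 member promoters are therefore printed, which carry such letters or, in *RRM2* and *POLD2*, do not. The 9 were picked as examples and do not give the share among the members. Where a gene had several start sites, the one with the most such letters around it was printed. The other start sites of *MCM7* and *PCNA* had none. Each stretch runs from 100 bases before to 20 bases after the start site, 5′ to 3′ on the strand of the gene, and comes from RefSeq on GRCh38.p14, a later build than the hg19 assembly of the expression files. Capitals mark matches to TTTGGCGC, TTTGCCGC, TTTCGCGC or TTTCCCGC on either strand, and overlapping matches run together. The stretches lie at chr3:127598311-127598430 (plus strand, *MCM2*), chr2:135876424-135876543 (minus, *MCM6*), chr7:100101378-100101497 (minus, *MCM7*), chr20:5126603-5126722 (minus, *PCNA*), chr18:657553-657672 (plus, *TYMS*), chr1:35769959-35770078 (minus, *CLSPN*), chr20:33686366-33686485 (minus, *E2F1*), chr2:10122639-10122758 (plus, *RRM2*) and chr7:44123529-44123648 (minus, *POLD2*).
MCM2: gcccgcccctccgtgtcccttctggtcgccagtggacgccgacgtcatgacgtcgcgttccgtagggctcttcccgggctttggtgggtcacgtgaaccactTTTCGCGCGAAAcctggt
MCM6: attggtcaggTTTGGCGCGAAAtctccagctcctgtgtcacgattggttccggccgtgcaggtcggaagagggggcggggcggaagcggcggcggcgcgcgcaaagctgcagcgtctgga
MCM7: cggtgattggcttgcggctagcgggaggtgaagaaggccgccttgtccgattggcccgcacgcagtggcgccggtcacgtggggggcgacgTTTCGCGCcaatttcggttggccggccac
PCNA: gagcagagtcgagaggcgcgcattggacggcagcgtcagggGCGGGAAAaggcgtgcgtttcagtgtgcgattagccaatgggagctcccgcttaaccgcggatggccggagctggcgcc
TYMS: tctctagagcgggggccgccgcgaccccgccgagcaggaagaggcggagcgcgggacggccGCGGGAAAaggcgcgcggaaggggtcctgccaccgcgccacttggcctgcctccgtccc
CLSPN: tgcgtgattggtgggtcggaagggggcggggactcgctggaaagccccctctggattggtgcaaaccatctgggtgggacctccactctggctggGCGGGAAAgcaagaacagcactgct
E2F1: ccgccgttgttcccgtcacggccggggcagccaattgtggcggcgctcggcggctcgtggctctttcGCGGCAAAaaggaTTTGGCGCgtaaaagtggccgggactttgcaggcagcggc
RRM2: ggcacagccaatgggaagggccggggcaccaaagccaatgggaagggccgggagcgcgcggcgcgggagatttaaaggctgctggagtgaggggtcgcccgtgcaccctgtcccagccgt
POLD2: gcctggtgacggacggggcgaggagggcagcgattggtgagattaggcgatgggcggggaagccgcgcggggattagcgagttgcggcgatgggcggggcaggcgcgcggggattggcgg

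RefSeq windows from 250 bases before to 50 bases after a start site were found for 41 of the 48 listed genes. The E2F letters were in at least 1 window of 21 of these 41 genes (51.2%), against 3.99% of all 27305 genes with a window and 6.75% of those tested in HCC4006. The members held 30 matches off chromosome 8, and 19 of them began within 100 bases before the start site. The letters CCAAT, searched on both strands, were in a window of 63.4% of the member genes, 39.7% of all genes and 43.2% of those tested in HCC4006, and the letters TTTGAA in 4.88%, 18.2% and 13.5%. TGACNNNGC, the core letters to which NRF2 binds with its MAF partners, were in 19.5% of the member genes, 16.1% of all genes and 19.5% of those tested in HCC4006. A match describes the letters only, and binding of a factor was not measured.

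Expression was given as FPKM (fragments scaled to transcript length and to the number of mapped fragments), which sets genes of unequal length on one scale. The sum of FPKM differed by at most 1.18-fold between libraries, and 12515 to 13573 genes reached 1 FPKM. Depth was seen only through the authors' base mean, an average of depth-scaled counts over a line's libraries, which summed to 13786938 in ABC1 and 13957320 in HCC4006, and the members' own base means were 121.5 to 5179 (ABC1) and 124.3 to 3384 (HCC4006). *NQO1*, *GCLM*, *HMOX1* and *TXNRD1*, taken as a check of the treatment because NRF2 is known to induce them, rose in both lines (4 of 4 called higher by limma in each). Of the epithelial and lung markers, *EPCAM*, *CDH1*, *KRT8*, *KRT18* and *KRT19* were above 90 FPKM in every library. *KRT7* had 25.9 and 25.4 FPKM with vehicle in ABC1 and 2106 and 2054 FPKM in HCC4006, *NKX2-1* and *NAPSA* were under 1 FPKM in ABC1 and clearly present in HCC4006, and *SFTPB* was at or near 0 in both. In HCC4006, 3 of the 8 epithelial and lung markers tested fell with DEM (*KRT7*, *KRT8* and *KRT18*), and the summed FPKM of the list was 4451 to 4641 with vehicle and 3501 to 3544 with DEM. In ABC1, 0 of the 6 tested were called, and the sum was 4975 to 5826 with vehicle and 3667 to 4086 with DEM. The part of these markers in the results below was not tested. Of the 8 genes that mark leukocytes, fibroblasts and endothelium, *PTPRC*, *CD3E*, *COL3A1*, *DCN*, *VWF* and *CDH5* were near 0 in every library. *COL1A1* had 3.58 to 7.64 FPKM over the libraries, and *CD68* had 1.55 to 2.54 FPKM in ABC1 and 89.3 to 102 FPKM in HCC4006, where the authors' base mean of *CD68* was 5.56. Neither was called with DEM in either line.

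In HCC4006 cells, most of the listed genes were called lower after DEM. Of 41 replication genes outside the list, 20 were called lower and 35 had a log2 fold change below 0. Of the 47 members, 41 were called lower, 0 were called higher and 6 did not pass the test, with 45 members at an unadjusted p under 0.05 (36.8% of all genes tested). The test was limma, fitted to log2(FPKM + 1) with the spread allowed to follow the level. Genes that averaged 1 FPKM or more in the line entered it, and a call was a Benjamini-Hochberg adjusted p under 0.05 over all of them. Among all 13542 genes tested in HCC4006, 10.7% were called lower and 8.45% higher. The members' median log2 fold change was -0.78, against -0.03 over all genes tested, and the median member kept 57.5% of its vehicle FPKM. Both DEM libraries lay below both vehicle libraries for 46 members, a pattern seen in 35.3% of all genes tested, and *ORC6* was the member whose groups overlapped. The log2 scale with a pseudocount of 1 understates the change of genes with a low FPKM.

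Without the minimum of 1 FPKM, 9 members were called lower in HCC4006, with 193 of 30580 genes called lower in all, and without vehicle replicate 1 of HCC4006 the count was 25. With 2 libraries against 2, no exact permutation test of a single gene can go under p = 0.333, two-sided, so each p-value here comes from limma's fit across genes. In cultures measured in bulk, fewer cells in S phase and less of each message per cell cannot be told apart.

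**Figure D1:**
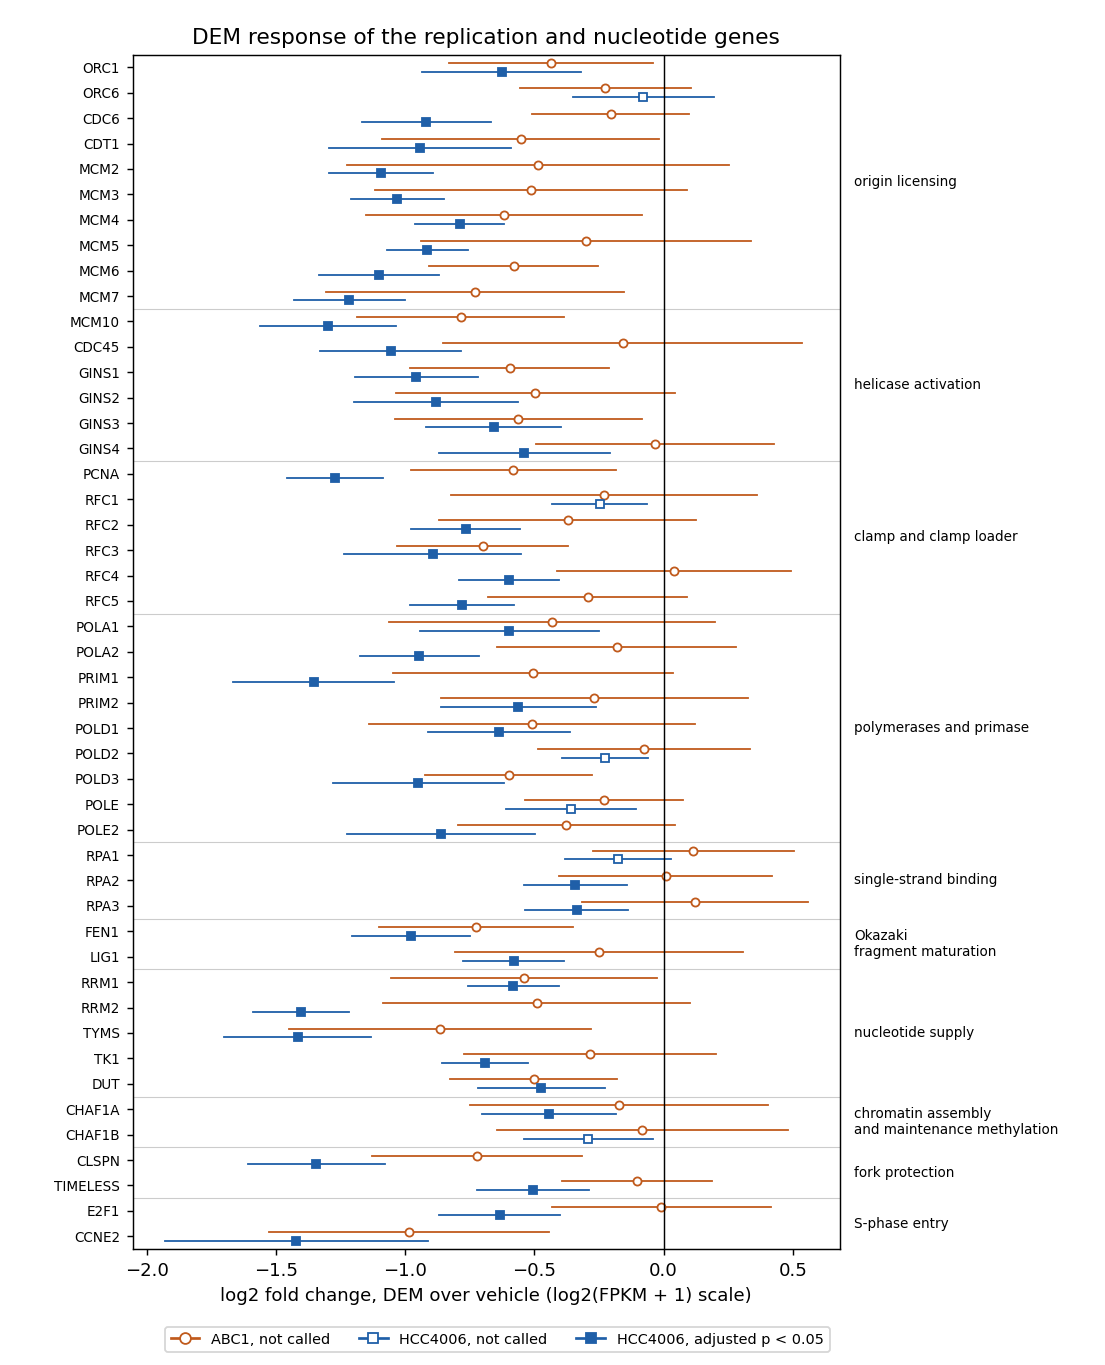
Log2 fold change of DEM over vehicle on the log2(FPKM + 1) scale (horizontal axis) for each of the 47 genes, ordered by step, in ABC1 (circles) and HCC4006 (squares). Bars are 95% intervals from limma, filled symbols are calls at an adjusted p under 0.05, and the 41 filled squares all lie below 0.

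Origin licensing, the loading of the helicase, fell at almost every member in HCC4006. Of the 10 licensing genes, 9 were called lower, against 10.7% of all genes tested. The median log2 fold change of the 10 was -0.93. All 6 subunits of the MCM2-7 ring fell, by a median of 1.06 on the log2 scale, to between 42.5% and 57.5% of vehicle. *MCM7* went from 154 and 134 FPKM with vehicle to 63.0 and 59.4 FPKM with DEM (log2 fold change -1.22, standard error 0.09, adjusted p = 0.00163 by limma). *MCM2* went from 116 FPKM in each vehicle library to 57.3 and 50.6 FPKM (-1.09, standard error 0.08), and *MCM6* from 27.7 and 29.7 to 12.3 and 13.4 FPKM (-1.10, standard error 0.09). The ring's subunits differed in level, *MCM6* being the lowest with vehicle, and their log2 fold changes lay between -1.22 and -0.79. *MCM3* went from 58.2 and 56.4 to 27.2 and 27.9 FPKM (-1.03, standard error 0.07). *MCM5* went from 127 and 128 to 66.3 and 67.8 FPKM (-0.91, standard error 0.06), and *MCM4* from 128 and 121 to 73.3 and 70.1 FPKM (-0.79, standard error 0.07).

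The loaders of the ring moved less evenly. *CDT1*, which brings MCM2-7 to the origin, went from 39.7 and 31.2 to 16.2 and 19.5 FPKM in HCC4006 (log2 fold change -0.94, standard error 0.14). *CDC6*, the ATPase that opens the way for loading, went from 34.1 and 36.4 to 16.8 and 19.6 FPKM (-0.92, standard error 0.10), and *ORC1*, the cell cycle-regulated subunit of the origin recognition complex, from 8.06 and 7.81 to 4.40 and 5.21 FPKM (-0.63, standard error 0.13). The 9 licensing calls had adjusted p-values by limma from 0.00160 (*MCM5*) to 0.0241 (*ORC1*). *ORC6*, another subunit of the complex, was not called, with 17.5 and 20.9 FPKM with vehicle and 17.6 and 18.5 FPKM with DEM, so that its groups overlapped. In ABC1 none of the 10 was called, where 0.435% of all genes tested were called lower. Both DEM libraries lay below both vehicle libraries for 8 of the 10, against 28.2% of all genes tested. The log2 fold changes of the 10 ran from -0.73 to -0.21. The lowest was again that of *MCM7*, at 137 and 146 FPKM with vehicle and 66.8 and 108 FPKM with DEM (standard error 0.23, adjusted p = 0.16 by limma).

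The 6 genes of helicase activation were all called lower in HCC4006, against 10.7% of all genes tested. Their median log2 fold change was -0.92. *MCM10*, which helps the helicase to fire, went from 32.0 and 30.1 to 11.0 and 13.1 FPKM (-1.30, standard error 0.11, adjusted p = 0.00224 by limma). *CDC45*, the helicase cofactor, went from 20.1 and 23.2 to 10.4 and 9.36 FPKM (-1.06, standard error 0.11). Of the 4 subunits of the GINS complex, *GINS1* and *GINS2* showed the larger changes and *GINS4* the smallest. *GINS1* went from 17.7 and 19.0 to 8.82 and 9.12 FPKM (-0.96, standard error 0.10), and *GINS2* from 23.5 and 19.0 to 11.7 and 10.4 FPKM (-0.88, standard error 0.13). *GINS3* went from 11.8 and 11.1 to 7.17 and 6.64 FPKM (-0.66, standard error 0.11), and *GINS4* from 6.39 and 5.41 to 3.86 and 3.62 FPKM (-0.54, standard error 0.14, adjusted p = 0.0433 by limma). In each of the 6, both DEM libraries lay below both vehicle libraries, a pattern seen in 35.3% of all genes tested. In ABC1 none was called, where 0.435% of all genes tested were called lower. There *MCM10* had the lowest log2 fold change, -0.79 (standard error 0.16, adjusted p = 0.0802 by limma), with 24.2 and 30.7 FPKM with vehicle and 14.3 and 16.5 FPKM with DEM. *CDC45* in ABC1 overlapped between groups, at 42.3 and 55.6 FPKM with vehicle and 32.7 and 57.2 FPKM with DEM.

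*PCNA*, the sliding clamp, had 183 and 192 FPKM with vehicle and 73.6 and 80.9 FPKM with DEM in HCC4006 (log2 fold change -1.27, standard error 0.08, adjusted p = 0.000967 by limma). Its loader, the pentameric RFC, fell at 4 of its 5 subunits. *RFC3* went from 11.5 and 13.5 to 5.64 and 6.94 FPKM (-0.89, standard error 0.14). *RFC5* went from 34.8 and 37.2 to 20.8 and 20.3 FPKM (-0.78, standard error 0.08), and *RFC2* from 44.3 and 48.3 to 25.9 and 27.8 FPKM (-0.76, standard error 0.09). *RFC4* went from 32.1 and 31.4 to 20.7 and 20.6 FPKM (-0.60, standard error 0.08). The large subunit *RFC1* was not called, at 86.6 and 81.7 FPKM with vehicle and 68.3 and 73.2 FPKM with DEM (-0.25, standard error 0.08, adjusted p = 0.0686 by limma). In ABC1, *PCNA* had 331 and 364 FPKM with vehicle and 207 and 259 FPKM with DEM (-0.58, adjusted p = 0.126 by limma). *RFC3* had the lowest adjusted p of all members there, 0.071 by limma, with 9.76 and 9.64 FPKM with vehicle and 5.55 and 5.62 FPKM with DEM (-0.70, standard error 0.13).

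**Figure D2:**
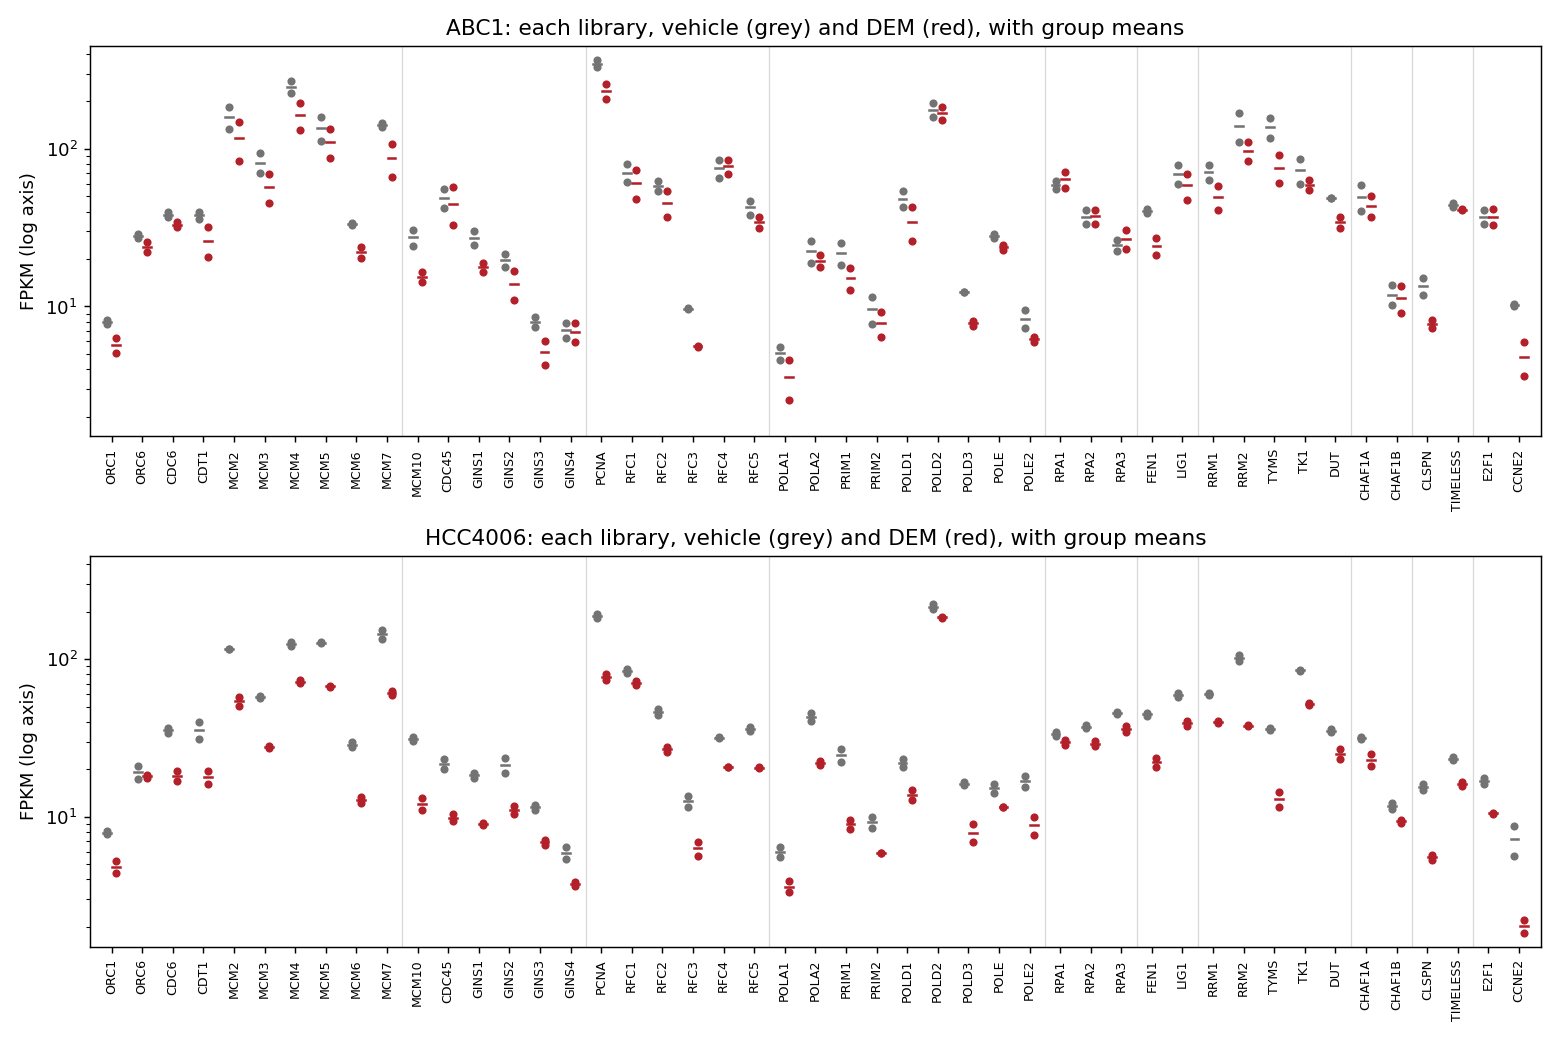
FPKM of each of the 47 genes (vertical log axis) in every library of ABC1 (top) and HCC4006 (bottom), with vehicle in grey, DEM in red, points for libraries and short bars for the means of 2. In HCC4006 the red points lie below the grey ones at 46 genes, and in ABC1 at 27. Over all genes tested, this pattern was seen in 35.3% in HCC4006 and 28.2% in ABC1.

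Among the 9 genes of the polymerases and primase, 7 were called lower in HCC4006, against 10.7% of all genes tested. The median log2 fold change of the 9 was -0.64. *PRIM1*, the catalytic subunit of primase, went from 22.2 and 27.0 to 8.41 and 9.55 FPKM (-1.35, standard error 0.13, adjusted p = 0.00325 by limma), and *PRIM2*, its partner, from 10.0 and 8.46 to 5.91 and 5.92 FPKM (-0.56, standard error 0.12). The polymerase alpha subunit *POLA2* went from 45.8 and 40.5 to 22.6 and 21.3 FPKM (-0.95, standard error 0.09). Its catalytic partner *POLA1* went from 5.52 and 6.40 to 3.89 and 3.32 FPKM (-0.60, standard error 0.14). The estimates for subunits of one enzyme were thus unequal, in polymerases delta and epsilon too, and the difference between subunits was not tested. *POLD3* of polymerase delta went from 16.5 and 15.8 to 6.92 and 8.96 FPKM (-0.95, standard error 0.13), and the catalytic *POLD1* from 23.4 and 20.7 to 14.8 and 12.8 FPKM (-0.64, standard error 0.11). *POLD2* was not called, at 224 and 207 FPKM with vehicle and 184 FPKM in each DEM library (-0.23, standard error 0.07, adjusted p = 0.0676 by limma). *POLE2* of polymerase epsilon went from 15.4 and 18.2 to 9.97 and 7.68 FPKM (-0.86, standard error 0.15). The catalytic *POLE* was not called, at 14.2 and 16.1 FPKM with vehicle and 11.6 FPKM in each DEM library (-0.36, standard error 0.10, adjusted p = 0.0612 by limma). The 7 calls had adjusted p-values by limma from 0.00325 (*PRIM1*) to 0.0371 (*POLA1*). In ABC1 none of the 9 was called, where 0.435% of all genes tested were called lower. There *POLD3* had the lowest log2 fold change, -0.60 (standard error 0.13, adjusted p = 0.0879 by limma), from 12.4 and 12.3 FPKM with vehicle to 7.53 and 8.12 FPKM with DEM.

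RPA, the trimer that covers single-stranded DNA in replication and repair, showed small changes. *RPA2* went from 36.4 and 38.0 to 30.1 and 28.2 FPKM in HCC4006 (log2 fold change -0.34, standard error 0.08, adjusted p = 0.0371 by limma). *RPA3* went from 46.5 and 44.8 to 34.4 and 37.5 FPKM (-0.34, standard error 0.08, adjusted p = 0.0394 by limma). The large subunit *RPA1* was not called, at 34.5 and 32.7 FPKM with vehicle and 28.6 and 30.7 FPKM with DEM (-0.18, standard error 0.08). In ABC1 the 3 subunits overlapped between groups. The largest value there was that of *RPA3*, 0.12 on the log2 scale (standard error 0.18), from 22.3 and 26.4 FPKM with vehicle and 23.0 and 30.5 FPKM with DEM.

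Both genes of Okazaki fragment maturation fell in HCC4006. *FEN1*, the nuclease that trims the flap left by the primer, went from 43.7 and 45.5 to 20.8 and 23.7 FPKM (log2 fold change -0.98, standard error 0.09, adjusted p = 0.00331 by limma). *LIG1*, the ligase that closes the nick, went from 57.2 and 61.0 to 40.6 and 37.9 FPKM (-0.58, standard error 0.08, adjusted p = 0.00877 by limma). In ABC1, *FEN1* had 39.4 and 41.3 FPKM with vehicle and 21.3 and 27.1 FPKM with DEM (-0.73, standard error 0.15, adjusted p = 0.0819 by limma). *LIG1* in ABC1 overlapped between groups, at 60.1 and 78.6 FPKM with vehicle and 47.6 and 69.7 FPKM with DEM.

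The 5 genes of nucleotide supply were all called lower in HCC4006, against 10.7% of all genes tested. They fell to between 35.9% and 71.4% of vehicle. *TYMS*, thymidylate synthase, went from 36.5 and 35.5 to 11.5 and 14.3 FPKM (log2 fold change -1.42, standard error 0.12, adjusted p = 0.00218 by limma). *RRM2*, the cell cycle-regulated subunit of ribonucleotide reductase, went from 106 and 97.3 to 37.7 and 37.9 FPKM (-1.40, standard error 0.08, adjusted p = 0.000707 by limma, the lowest of the members). The large subunit *RRM1* went from 61.4 and 59.0 to 39.5 and 40.2 FPKM (-0.58, standard error 0.07). In HCC4006 these subunits of the reductase ended at nearly the same FPKM from unequal starting levels. In ABC1 they did not, with DEM means of 49.4 FPKM (*RRM1*) and 97.6 FPKM (*RRM2*). *TK1*, the thymidine salvage kinase, went from 84.4 and 85.0 to 53.0 and 51.1 FPKM (-0.69, standard error 0.07), and *DUT*, the dUTPase that keeps uracil out of DNA, from 34.4 and 35.9 to 23.1 and 27.1 FPKM (-0.47, standard error 0.10, adjusted p = 0.0276 by limma). In ABC1 none of the 5 was called, where 0.435% of all genes tested were called lower. There *TYMS* had 118 and 156 FPKM with vehicle and 60.5 and 90.8 FPKM with DEM (-0.86, standard error 0.24, adjusted p = 0.125 by limma). *RRM2* in ABC1 had 110 and 168 FPKM with vehicle and 84.4 and 111 FPKM with DEM, and its groups overlapped.

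The remaining steps had 2 measured members each. *CHAF1A*, the large subunit of the histone chaperone that reassembles chromatin behind the fork, went from 31.0 and 32.2 to 25.1 and 21.0 FPKM in HCC4006 (log2 fold change -0.44, standard error 0.11, adjusted p = 0.0372 by limma). *CHAF1B* of the same complex was not called, at 11.2 and 12.2 FPKM with vehicle and 9.19 and 9.54 FPKM with DEM (-0.29, standard error 0.10). In ABC1 both overlapped between groups, with *CHAF1A* at 40.3 and 59.0 FPKM with vehicle and 37.0 and 50.5 FPKM with DEM (-0.17, standard error 0.23). *CLSPN*, the fork mediator of the replication checkpoint, went from 14.9 and 16.2 to 5.73 and 5.30 FPKM in HCC4006 (-1.34, standard error 0.11, adjusted p = 0.00204 by limma). *TIMELESS*, its neighbour in the fork protection machinery, went from 22.9 and 23.9 to 16.7 and 15.7 FPKM (-0.50, standard error 0.09, adjusted p = 0.0166 by limma). In ABC1, *CLSPN* had 11.9 and 15.1 FPKM with vehicle and 7.29 and 8.16 FPKM with DEM (-0.72, standard error 0.17, adjusted p = 0.0933 by limma).

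Of the genes of S-phase entry, *CCNE2*, a cyclin that activates CDK2, had the lowest log2 fold change of all members in each line. It went from 5.67 and 8.74 to 1.83 and 2.20 FPKM in HCC4006, which is 28.0% of vehicle (log2 fold change -1.42, standard error 0.21, adjusted p = 0.0106 by limma). In ABC1 it had 10.4 and 10.1 FPKM with vehicle and 3.63 and 5.95 FPKM with DEM (-0.99, standard error 0.22, adjusted p = 0.0924 by limma). *E2F1*, one of the E2F factors, fell from 16.2 and 17.5 to 10.6 and 10.4 FPKM in HCC4006 (-0.63, standard error 0.10, adjusted p = 0.0111 by limma). In ABC1 *E2F1* had 33.4 and 40.9 FPKM with vehicle and 32.7 and 41.3 FPKM with DEM, and the groups overlapped. In *TYMS* and *CCNE2*, 39.9% and 37.0% of the annotated exon bases are also exons of a coding gene on the opposite strand, *ENOSF1* and *INTS8*. The libraries mark strand, but whether the counting used it is not given in the sources used here, so that their FPKM values may hold reads of those neighbours. Among the other members, 9 share up to 7.90% of their exon bases in this way, and 11 members, *DUT* and *RRM2* among them, have annotated pseudogenes of their name.

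In ABC1 cells most members had a negative log2 fold change and none was called. By limma with Benjamini-Hochberg adjustment, 0 of 47 passed in either direction, 17 had an unadjusted p under 0.05 (21.9% of all genes tested did), and the lowest adjusted p was 0.071. Among all 12635 genes tested in ABC1, 0.435% were called lower. The members' median log2 fold change was -0.43, against -0.02 over all genes tested, with 43 values below 0 and 4 above (*RPA1*, *RPA2*, *RPA3* and *RFC4*, of which *RPA2* lay below 0 when the FPKM of each library were rescaled to a common total). *E2F1*, at -0.01, lay above 0 with median-of-ratios scaling. Both DEM libraries lay below both vehicle libraries for 27 members, against 28.2% of all genes tested. The median standard error of the members was 0.19 in ABC1 and 0.10 in HCC4006. With the FPKM rescaled to a common total, 4 members were called lower in ABC1, with 121 of 12635 genes called lower in all. When the spread was estimated from all 8 libraries, 11 members and 788 genes in all were called lower. With a replicate block, a term in the fit for the replicate number, 23 members and 1163 genes in all were. Over all settings tried the count of members ran from 0 to 23.

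The ABC1 libraries differed within their groups. Relative to the mean of the vehicle libraries, the median member stood at -0.14 and 0.14 on the log2 scale in vehicle replicates 0 and 1 and at -0.61 and -0.18 in DEM replicates 0 and 1. In HCC4006 the vehicle libraries stood at -0.01 and 0.01 and the DEM libraries at -0.76 and -0.76. In ABC1 the library labelled replicate 1 was above that labelled replicate 0 for 44 of 47 members with vehicle and 46 with DEM. Over all genes tested in ABC1 the share was 63.7% in vehicle and 58.6% in DEM. For 43 members it was above in both groups. The FPKM sums of the ABC1 libraries were 628775 and 697394 with vehicle and 627085 and 737534 with DEM. The ABC1 median became -0.18 without DEM replicate 0, -0.26 without vehicle replicate 1 and -0.61 without DEM replicate 1.

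**Figure D3:**
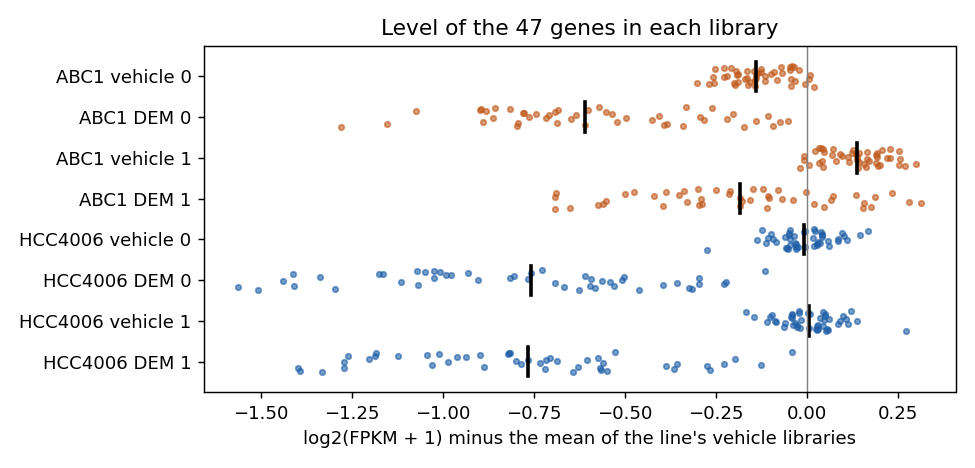
Log2(FPKM + 1) of the 47 genes minus the mean of the line's vehicle libraries (horizontal axis), one row per library, with a point per gene and a black bar at the median. The DEM libraries of HCC4006 have medians of -0.76 each, whereas those of ABC1 have medians of -0.61 and -0.18.

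Whether the lines responded differently was tested directly, as the HCC4006 response minus the ABC1 response in a fit of all 8 libraries. By limma with Benjamini-Hochberg adjustment, 0 of 47 members were called, 13 had an unadjusted p under 0.05 (15.1% of all genes tested did) and the lowest adjusted p was 0.094 (*CDC6*), while 0.636% of all 13682 genes tested were called in either direction. The median difference was -0.39 on the log2 scale, the range was -0.91 to 0.15, and 45 members lay below 0, that is, lower in HCC4006. This median moved with single ABC1 libraries: it was -0.20 without DEM replicate 1 of ABC1 (38 members below 0) and -0.60 without DEM replicate 0. For *CDC6* the difference was -0.71 (95% interval -1.07 to -0.36), for *PCNA* -0.69 (-1.11 to -0.27) and for *RRM2* -0.91 (-1.59 to -0.23). *DUT* and *ORC6* were the members above 0, with differences of 0.03 (95% interval -0.35 to 0.41) and 0.15 (-0.25 to 0.55). The intervals are those of single genes and are not adjusted for the number of genes tested.

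Members that changed more in one line tended to change more in the other. Across the 47 members, Pearson's r between the log2 fold changes in ABC1 and HCC4006 was 0.737 and Spearman's rho 0.724, given as a description across genes, which are not independent replicates. Over the 11539 genes tested in both lines, Pearson's r was 0.545. The lines share no library, and both were scaled and filtered in the same way. For 26 members the DEM libraries lay below the vehicle libraries without overlap in each line, as they did for 16.5% of the genes tested in both. *CCNE2*, *TYMS*, *MCM10*, *CLSPN* and *MCM7* lay at the low end in both lines, and *RPA1*, *POLD2* and *CHAF1B* at the upper end, with -0.18, -0.23 and -0.29 in HCC4006 and 0.12, -0.08 and -0.08 in ABC1.

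**Figure D4:**
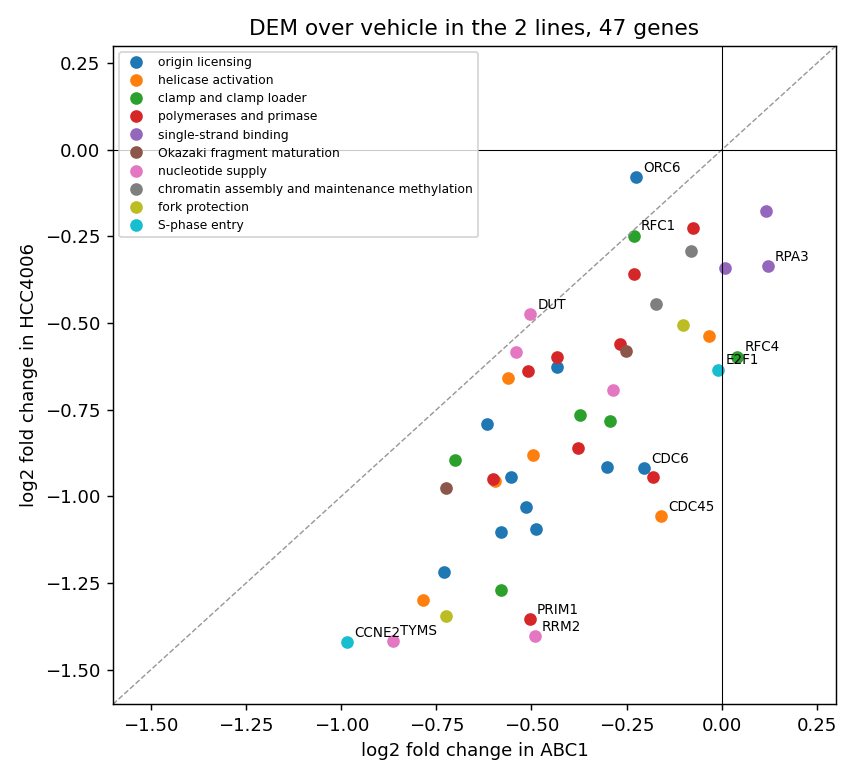
Log2 fold change of DEM over vehicle in ABC1 (horizontal axis) and HCC4006 (vertical axis) for the 47 genes, coloured by step, with the line of equal change dashed. Of the points, 45 lie below the dashed line, and *CCNE2* and *TYMS* are lowest in both directions.

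The starting levels of some members also differed between the lines. With vehicle, *PCNA* had the highest mean FPKM of the members in ABC1 (347.8) and *POLD2* in HCC4006 (215.6), while *POLA1* was the lowest in ABC1 (5.04) and *GINS4* in HCC4006 (5.90). By limma, 14 members were lower in HCC4006 than in ABC1, 5 were higher and 28 were not called. Among all 13682 genes tested, 30.2% were called lower and 36.8% higher. The members thus differed no more often than genes in general. *TYMS* showed the widest gap, with a log2 difference of HCC4006 over ABC1 of -1.89 (standard error 0.21). *RFC4*, *CDC45*, *E2F1*, *POLD1* and *MCM4* followed, with -1.21, -1.13, -1.09, -1.09 and -0.98. The 5 members higher in HCC4006 were *POLA2* (0.93), *POLE2* (0.93), *RPA3* (0.88), *GINS3* (0.47) and *POLD3* (0.36). The count of higher members was 3 without vehicle replicate 0 of ABC1, without either vehicle library of HCC4006 or with no minimum FPKM.

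Other replication genes, 41 in number and not part of the 48, were called lower at 20 genes, higher at 0 and neither at 21 in HCC4006. Among all genes tested in HCC4006, 10.7% were called lower. The median of the 41 log2 fold changes was -0.44, against -0.78 in the members. *E2F8*, a repressor of the E2F family that is itself transcribed in S phase, went from 3.76 and 6.25 to 0.602 and 0.555 FPKM (-1.90, standard error 0.23, adjusted p = 0.00651 by limma). *CDC7*, the kinase that fires origins, went from 4.73 and 3.97 to 1.10 and 1.61 FPKM (-1.19, standard error 0.18, adjusted p = 0.0113 by limma). *TOP2A*, the topoisomerase that untangles sister chromatids, went from 56.7 and 53.7 to 22.7 and 25.5 FPKM (-1.16, standard error 0.09, adjusted p = 0.00179 by limma). These 3 were picked as the called genes with the largest changes. Both DEM libraries lay below both vehicle libraries for 32 of the 41, a pattern seen in 35.3% of all genes tested. In ABC1, 0 of the 41 were called, where 0.435% of all genes tested were called lower. An unadjusted p under 0.05 was seen at 4, which is fewer than the 21.9% of all genes tested. The median of the 41 was -0.20.

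A list of 30 further genes make, salvage or carry nucleotides more generally. In HCC4006, 12 of them were called lower, 0 higher and 18 neither, with a median log2 fold change of -0.33. Over all genes tested, 10.7% were called lower. *SLC29A1*, the equilibrative nucleoside transporter, went from 36.3 and 38.2 to 20.2 and 22.4 FPKM (-0.78, standard error 0.09, adjusted p = 0.00557 by limma). *DCK*, the deoxycytidine salvage kinase, went from 7.82 and 7.77 to 4.53 and 4.87 FPKM (-0.63, standard error 0.11, adjusted p = 0.0186 by limma). *PRPS2*, which makes the ribose donor of nucleotide synthesis, went from 42.1 and 39.2 to 26.2 and 26.0 FPKM (-0.62, standard error 0.08, adjusted p = 0.00747 by limma). These 3 were again picked as the called genes with the largest changes. Both DEM libraries lay below both vehicle libraries for 26 of the 30, against 35.3% of all genes tested. In ABC1, 0 of the 30 were called, where 0.435% of all genes tested were called lower. An unadjusted p under 0.05 was seen at 7, a share near that of all genes tested. The median of the 30 was -0.24.

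The promoter letters were set beside the response as a description. Values and windows were at hand for 40 members, 20 with the E2F letters printed above and 20 without. In HCC4006 the median log2 fold change was -0.93 with the letters and -0.61 without. Called lower were 19 of 20 with them and 15 of 20 without, both above the 10.7% of all genes tested. The member with letters that was not called was *POLE*, and those without were *ORC6*, *RFC1*, *POLD2*, *RPA1* and *CHAF1B*. *RRM2*, whose printed stretch holds no capitals, had one of the lowest values in HCC4006, -1.40, so that the sets overlapped widely. In ABC1 the medians were -0.51 with the letters and -0.28 without.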

How the data were processed

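Polyadenylated RNA of ABC1 and HCC4006 cells was sequenced by the authors from strand-specific libraries. The authors deposited FPKM values for 57815 gene identifiers per library. The study's methods name TopHat, Cufflinks and hg19, whereas the submitters' processing notes list STAR 2.5.3a, cutadapt 1.15, Cuffnorm, HTSeq and DESeq2 with hg19, and which of them made the FPKM values is not given in the sources used here. FPKM spreads a library's reads over all genes, so that a few very abundant genes can shift the rest. The authors also deposited a comparison table per line with fold changes and p-values, which were not used. Its base mean, a coverage signal deposited as depth-scaled mean counts, was used only to describe depth. The series title spells the reagent dimethylmaleate and the methods diethyl maleate.

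Symbols were found for 55534 identifiers. Within a line, DEM and vehicle were compared by limma 3.58.1 (R 4.3.3) fitted to log2(FPKM + 1), with its trend option and a minimum mean of 1 FPKM. The difference between lines and the vehicle levels came from 1 fit of all 8 libraries. Benjamini-Hochberg adjustment ran over all genes tested. The members and lists were chosen with earlier results of these data known. Full values are given for members called in either line and, in each step, for the member with the largest change in each line, and of the further lists at most 3 called genes per line. Alternatives changed the scaling, pseudocount, minimum FPKM, trend, libraries in the fit and replicate block, and left out each library. Libraries were also simulated with 100 genes changed by 1 on the log2 scale. The right sign was called for 95 in ABC1, 96 in HCC4006 and 94 for the difference between lines. The simulated spread followed the level alone, and no shift was shared by the genes of a library. The real ABC1 libraries did shift within their groups, so these counts check the code and give no rate of detection for the real data. Nothing in the labels ties a replicate number to a culture day. The p-values rest on the spread between these 2 libraries per group, which limma draws towards a value fitted across all genes. Promoter letters were searched in RefSeq windows on GRCh38.p14.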

Additional observations from a re-analysis of the deposited data

How the results depend on the processing

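In HCC4006 the count of members called lower was 41. It was 9 with no minimum FPKM, 32 with all 8 libraries in one fit and 25 to 29 with 1 library left out, lowest without vehicle replicate 1. It was 37 to 42 in the other settings, and 0 members were called higher in any setting. The cause of the drop with no minimum was not tested. The HCC4006 median of -0.78 was -0.75 with median-of-ratios scaling, -0.80 after rescaling to a common total, -0.80 and -0.79 with pseudocounts of 0.1 and 0.5, and -0.76 to -0.74 with 1 library left out. In ABC1 the count of 0 became 4 after rescaling to a common total, 11 with all 8 libraries in one fit and 23 with the replicate block. Over all 12635 genes tested, 121, 788 and 1163 were called lower in these settings. The ABC1 median of -0.43 ran from -0.61 to -0.18 with 1 library left out. Libraries with the same replicate number deviated together with a correlation across genes of 0.258 in ABC1 and 0.054 in HCC4006. Nothing else ties the numbers to a shared culture, so they were taken only as names. With the replicate block, HCC4006 had 42 members lower and 0 differed between the lines. The median difference of response, -0.39, ran from -0.60 to -0.20 with 1 library left out. With vehicle, the 5 members higher in HCC4006 became 3 with no minimum FPKM, 8 with the replicate block and 3 to 6 with 1 library left out, and the 14 lower ran from 12 to 20 over all settings.

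Single members changed sign in 24 of the settings' values, all of them uncalled. E2F1 in ABC1 was 0.0031 with median-of-ratios scaling and RPA2 was -0.02895 after rescaling to a common total. Leaving out 1 library of ABC1 gave these ranges. CDC45 ran from -0.55 to 0.23, GINS4 from -0.20 to 0.14, RFC1 from -0.54 to 0.072, RFC4 from -0.15 to 0.23, POLA2 from -0.40 to 0.039, POLD2 from -0.22 to 0.067 and RPA1 from -0.051 to 0.28. RPA2 ran from -0.14 to 0.16, RPA3 from -0.073 to 0.31, LIG1 from -0.52 to 0.020, CHAF1A from -0.44 to 0.10, CHAF1B from -0.34 to 0.18 and E2F1 from -0.17 to 0.16. In HCC4006, ORC6 ran from -0.20 to 0.044. Of the other values for single members, 38 in ABC1 and 2 in HCC4006 passed the threshold under an alternative, and 99 in HCC4006 no longer passed it, all with an unchanged direction.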

Other observations

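Some close relatives of the members had values unlike theirs in HCC4006, and the pairs were chosen after the values were seen. *CCNE1*, the other cyclin E, had 15.9 and 14.7 FPKM with vehicle and 13.4 and 13.6 FPKM with DEM (log2 fold change -0.17, adjusted p = 0.253 by limma), beside the fall of *CCNE2* to 28.0% of vehicle. *RRM2B*, the p53-induced small subunit of ribonucleotide reductase, had 5.25 and 5.79 FPKM with vehicle and 5.81 and 4.94 FPKM with DEM, whereas *RRM2* fell to 37.2% of vehicle. *E2F7*, a repressor related to *E2F8*, had 10.2 and 11.0 FPKM with vehicle and 15.6 and 13.1 FPKM with DEM (0.40, adjusted p = 0.0652 by limma), whereas *E2F8* fell to 11.6% of vehicle. *DBF4*, the activating partner of the kinase CDC7, had 31.0 and 28.6 FPKM with vehicle and 27.7 and 32.1 FPKM with DEM, whereas *CDC7* fell by 1.19 on the log2 scale. The difference within each pair was not tested.

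In ABC1 the same pairs were not called at either gene. *E2F8* had 5.33 and 7.09 FPKM with vehicle and 2.94 and 3.78 FPKM with DEM, and *E2F7* had 5.50 and 6.73 FPKM with vehicle and 6.17 and 7.79 FPKM with DEM. The origin recognition subunits *ORC2* to *ORC5* were also not called in either line, with log2 fold changes in HCC4006 from -0.27 (*ORC2*) to 0.08 (*ORC4*).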
